A study of Caenorhabditis elegans with 2 samples.

Results

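The nuclear pore and transport genes of Caenorhabditis elegans were the 40 protein-coding genes whose symbols start with npp, imb, ima, ran or xpo and a number, of 19973 protein-coding genes in all. They were chosen by symbol in the Ensembl annotation of the WBcel235 assembly, and comprised 26 npp genes, 3 imb, 3 ima, 3 xpo and 5 ran genes. The data were ChIP-seq of NHR-47, a nuclear hormone receptor, in which DNA bound to a tagged protein is recovered with an antibody and sequenced. There was 1 group, with 2 biological replicates. Both came from hermaphrodite L1 larvae of strain OP481, genotype unc-119(tm4063) III; wgIs481, collected 6 h after synchronization from starved hatchlings. The transgenic line stably expresses NHR-47 fused at its C terminus to GFP and FLAG, and the precipitation used anti-GFP, although the antibody field of the labels names nhr-47. The promoter of the transgene is not given in the sources used here. Whole animals were used, so signal from different cell types was mixed. The authors called regions against a control, and the only measurement was the place and strength of these regions. With no second condition, the genes were compared with all protein-coding genes and the replicates with each other.

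The nuclear pore is a ring of nucleoporins set in the nuclear envelope. A membrane-anchored inner ring and outer Y complexes form its scaffold, and nucleoporins rich in phenylalanine and glycine fill the central channel. Importins carry proteins into the nucleus, with importin alpha as an adaptor that reads the localization signal for importin beta, and exportins carry cargo out. Direction comes from the GTPase Ran, which is loaded with GTP in the nucleus by its exchange factor and stripped of it in the cytoplasm by its activating protein. In C. elegans the envelope is taken apart and rebuilt at each division of the early embryo.

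A promoter peak was found at 29 of the 40 genes (72.5%), against 12.8% of all protein-coding genes. A promoter peak here is a summit of the authors' thresholded list within the 500 bp before or the 200 bp after a gene's annotated 5′ end. The 13 of 14 transport factor genes with a peak were all 3 imb, all 3 ima, all 3 xpo and 4 of 5 ran genes, and 16 of the 26 npp genes had one. The 29 summits were distinct, and no gene had more than 1. Of the 29 genes, 15 had a summit that also lay in the window of a neighbouring gene. With each summit given only to the nearest 5′ end, 18 genes kept a peak, against 10.2% of all genes. Without shared summits, the count was 14, against 7.62%.

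**Figure D1:**
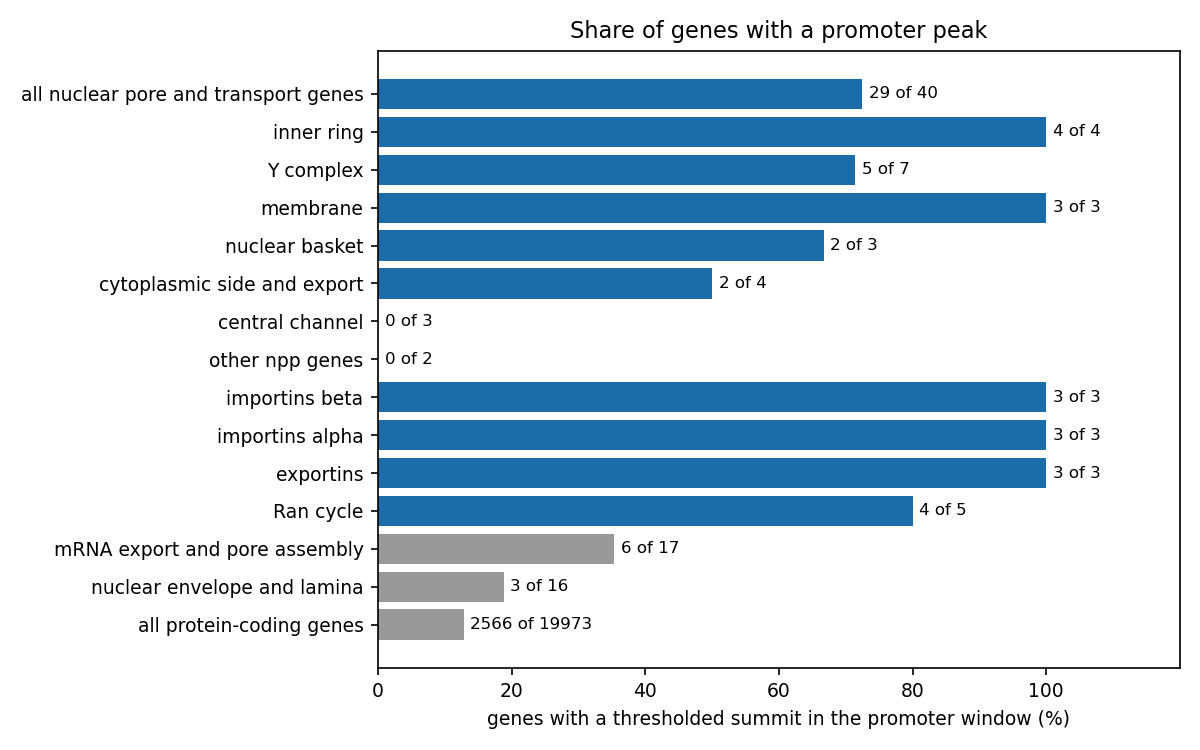
Bars give the percentage of genes with a thresholded summit in the promoter window, and the count stands beside each bar. Blue bars are the nuclear pore and transport genes, in all (29 of 40) and by role, and grey bars are the 2 further lists and all protein-coding genes (2566 of 19973).

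The summit base with 50 bases on each side is shown for 10 of the 18 peaks on chromosomes II to V. They are the 5 strongest, ima-1 for the nuclear receptor motif it holds, imb-2, xpo-3 and npp-9 for runs of bases they share with others of these genes, and ima-3, the weakest. The sequences are from the RefSeq WBcel235 (ce11) genome, 5′ to 3′ on the strand of the named gene. Capitals mark matches to the 5 motifs searched and to the 3 shared runs held by at least 20 promoter peak windows, both described further down.
npp-3: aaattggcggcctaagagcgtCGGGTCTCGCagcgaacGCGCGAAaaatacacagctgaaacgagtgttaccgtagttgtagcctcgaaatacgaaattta
npp-8: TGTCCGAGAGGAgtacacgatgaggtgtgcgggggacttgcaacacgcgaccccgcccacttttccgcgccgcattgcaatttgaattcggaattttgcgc
ran-5: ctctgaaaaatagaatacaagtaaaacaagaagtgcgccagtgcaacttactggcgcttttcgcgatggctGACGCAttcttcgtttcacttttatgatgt
npp-18: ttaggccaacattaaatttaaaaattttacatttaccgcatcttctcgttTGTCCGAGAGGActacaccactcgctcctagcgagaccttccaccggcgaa
npp-20: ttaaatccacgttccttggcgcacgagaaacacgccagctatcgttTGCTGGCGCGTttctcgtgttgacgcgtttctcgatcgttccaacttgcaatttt
ima-1: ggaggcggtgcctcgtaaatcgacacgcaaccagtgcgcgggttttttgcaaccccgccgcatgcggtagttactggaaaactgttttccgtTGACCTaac
imb-2: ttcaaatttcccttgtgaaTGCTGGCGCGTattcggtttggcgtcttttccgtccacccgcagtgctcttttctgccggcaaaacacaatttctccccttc
xpo-3: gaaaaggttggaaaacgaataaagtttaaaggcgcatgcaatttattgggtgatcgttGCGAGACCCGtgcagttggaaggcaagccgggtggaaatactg
npp-9: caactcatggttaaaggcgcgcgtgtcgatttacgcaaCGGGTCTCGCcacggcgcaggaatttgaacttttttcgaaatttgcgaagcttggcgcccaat
ima-3: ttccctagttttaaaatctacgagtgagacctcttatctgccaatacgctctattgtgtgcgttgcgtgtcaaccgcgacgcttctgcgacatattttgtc
These windows are chrII:11874822-11874922 (npp-3), chrIV:1595938-1596038 (npp-8), chrII:6047790-6047890 (ran-5), chrIII:13296640-13296740 (npp-18) and chrIV:1496082-1496182 (npp-20). The others are chrV:11239335-11239435 (ima-1), chrII:14365395-14365495 (imb-2), chrIV:7924240-7924340 (xpo-3), chrIII:3404578-3404678 (npp-9) and chrIV:7561916-7562016 (ima-3). The windows of npp-3, npp-8, npp-20, xpo-3, npp-9 and ima-3 are on the minus strand and the rest on the plus strand.

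The peaks were frequent but of ordinary strength for a promoter peak. Signal below is given relative to the median peak of the replicate, so that 1 is a peak of median strength. The median over the 29 genes was 1.47, against 1.43 over all genes with a promoter peak and a value in both replicates. Of the 29 genes, 18 stood at or above 1 and 11 below it. The value 1 is the median over thresholded peaks of every kind, below the 1.43 of genes with a promoter peak. The share of those genes at or above 1 was not counted. The pooled signal of the 29 genes, the authors' own score, ran from 89.3 to 1072 with a median of 232. Thresholded peaks ran from 77.0 to 4060. Ranked by that score among the 5357 thresholded peaks, 10 of the 29 were in the first 1000 (34.5%), against 31.0% of all genes with a promoter peak. In the stronger 2678 peaks, 21 of the 40 genes kept a summit (52.5%), against 8.46% of all protein-coding genes.

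The inner ring genes all had a peak, 4 of 4, and their median relative signal of 3.83 was the highest of the roles, although single genes of other roles stood above npp-8, npp-13 and npp-19. At npp-3, the homolog of the large scaffold nucleoporin Nup205, relative signal was 6.40 in replicate 1 and 7.03 in replicate 2 (6.72 ± 0.45, SD, n = 2), at rank 153. Its peak on II from 11874666 to 11875067 had a summit 84 bp upstream of the gene, and lay between npp-3 and top-2, which encodes DNA topoisomerase II and is transcribed the other way. At npp-8, the homolog of Nup155, the values were 4.81 in replicate 1 and 4.62 in replicate 2 (4.72 ± 0.139, n = 2), and no other gene shared the summit, 164 bp upstream. The replicates of npp-3 and npp-8 did not overlap, so the order of these genes held in each. The Nup93 homolog npp-13 had 2.95 in replicate 1 and 2.93 in replicate 2 (2.94 ± 0.0138), and npp-19, the homolog of Nup35, had 2.53 in replicate 1 and 2.03 in replicate 2 (2.28 ± 0.349).

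The Y complex, the outer scaffold of the pore, had a peak at 5 of the 7 genes placed in it here. The Nup160 homolog npp-6 was the strongest, with 3.51 in replicate 1 and 3.25 in replicate 2 (3.38 ± 0.185). Its summit was 398 bp upstream and 223 bp inside spd-5, a divergent gene for a centrosome scaffold protein, so that it was nearer to the 5′ end of spd-5. The beta-propeller genes npp-18 (SEH1) and npp-20 (SEC13) followed, at 2.34 in replicate 1 and 2.69 in replicate 2 for npp-18 (2.52 ± 0.253). For npp-20 the values were 1.99 in replicate 1 and 2.63 in replicate 2 (2.31 ± 0.454). The order of npp-18 and npp-20 was the same in both replicates, but their means differ by less than the SD of npp-20. The weaker npp-2, the Nup85 homolog (0.821 ± 0.23), and npp-5, the Nup107 homolog (0.634 ± 0.0289), were under the median peak. The Y complex also contains Nup96, which is made with Nup98 from the precursor encoded by npp-10, a gene without a peak that is grouped here with the cytoplasmic side. The other Y complex genes without a peak were npp-15, the homolog of Nup133, and npp-23, a gene for a WD-repeat protein.

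All 3 genes for membrane nucleoporins had a peak, near median strength. The NDC1 homolog npp-22 had 1.40 in replicate 1 and 1.46 in replicate 2 (1.43 ± 0.036), with its summit 206 bp upstream, inside the same-strand gene spe-42. The genes npp-25 (TMEM33; 0.977 ± 0.295) and npp-12 (gp210; 0.925 ± 0.331) were under 1 in replicate 1 and over 1 in replicate 2. Their summits lay between divergent genes, npp-25 beside mrps-10 for a mitochondrial ribosomal protein and npp-12 beside T23H2.3.

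On the cytoplasmic side, npp-14, the homolog of Nup214, had 3.35 in replicate 1 and 3.27 in replicate 2 (3.31 ± 0.0514). It shared the summit with cel-1, the mRNA capping enzyme gene, whose 5′ end was nearer. The Nup358 homolog npp-9 was weaker (0.678 ± 0.0168). Of the nuclear basket genes, npp-7, the homolog of Nup153, had 1.56 in replicate 1 and 2.07 in replicate 2 (1.81 ± 0.365). Its summit lay 499 bp upstream, just inside the window, and 262 bp upstream of unc-40, which encodes the netrin receptor. The Nup50 homolog npp-16 had 0.981 in replicate 1 and 0.971 in replicate 2 (0.976 ± 0.00663), with its summit 69 bp upstream, the closest of the 29 to the 5′ end of its own gene.

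**Figure D2:**
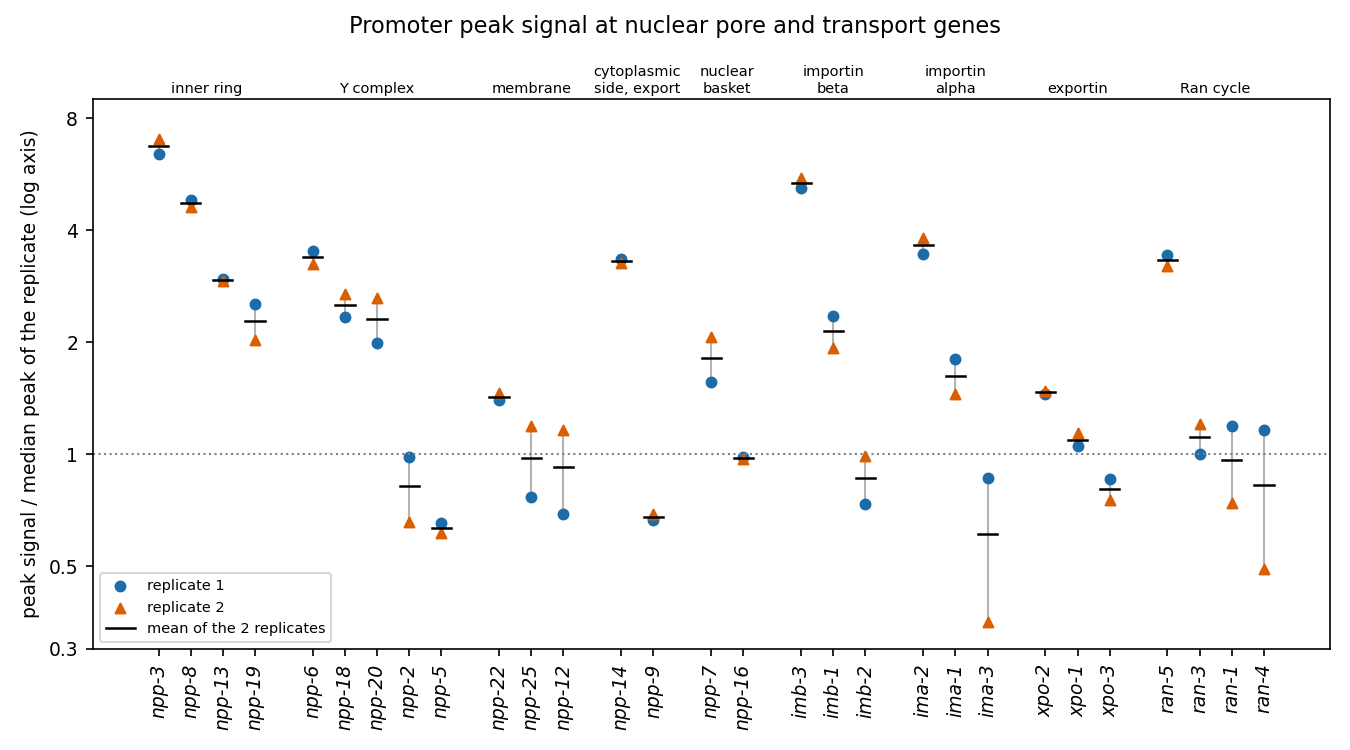
Each column is a gene with a promoter peak, grouped by role; circles are replicate 1, triangles replicate 2 and bars their mean, as signal relative to the median peak of the replicate (log axis). The inner ring genes run from 2.28 to 6.72, and ima-3 and ran-4 have the widest gaps between replicates.

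Every imb and ima gene had a peak, and within each class the strength differed several-fold. Among the importins beta, imb-3 had 5.21 in replicate 1 and 5.53 in replicate 2 (5.37 ± 0.223), at rank 234, second to npp-3 among the 29. The importin beta 1 homolog imb-1 had 2.35 in replicate 1 and 1.93 in replicate 2 (2.14 ± 0.291), and imb-2, the transportin homolog, 0.737 in replicate 1 and 0.990 in replicate 2 (0.863 ± 0.179). The values of the 3 genes did not overlap. Among the importins alpha, ima-2 had 3.45 in replicate 1 and 3.82 in replicate 2 (3.64 ± 0.266), and ima-1 had 1.80 in replicate 1 and 1.45 in replicate 2 (1.62 ± 0.242). The third, ima-3, had the lowest mean of the 29, with 0.866 in replicate 1 and 0.354 in replicate 2 (0.610 ± 0.363). The summit of imb-1 was also in the window of mfsd-13.1, and that of ima-1 in the window of dvc-1, and in both cases the neighbour was nearer.

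The exportin genes sat close to the median peak. The Exportin-2 gene xpo-2, whose product returns importin alpha to the cytoplasm, had 1.45 in replicate 1 and 1.48 in replicate 2 (1.47 ± 0.0278). At xpo-1, the CRM1 gene for export of proteins with a nuclear export signal, the values were 1.05 in replicate 1 and 1.14 in replicate 2 (1.09 ± 0.0638). The Exportin-T gene xpo-3, for tRNA export, had 0.858 in replicate 1 and 0.753 in replicate 2 (0.806 ± 0.0742). All 3 summits also lay in the window of a divergent gene, nol-14, uvs-1 and C49H3.3. The summit of xpo-3 fell inside the noncoding gene C49H3.14 as well. That of xpo-1 lay 428 bp upstream of either gene.

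In the Ran cycle, ran-5, for a protein with a Ran-binding domain, stood highest, with 3.44 in replicate 1 and 3.21 in replicate 2 (3.32 ± 0.169). Its summit was 269 bp upstream of ran-5 and 27 bp inside the divergent gene R12C12.6. The exchange factor gene ran-3 had 1.00 in replicate 1 and 1.21 in replicate 2 (1.11 ± 0.148), with its summit 47 bp upstream of the divergent C26D10.3. The gene of the GTPase itself, ran-1, had 1.19 in replicate 1 and 0.741 in replicate 2 (0.964 ± 0.315). Its summit was 446 bp upstream, and 255 bp upstream of dkc-1, which encodes dyskerin. At ran-4, the NTF2 gene for the carrier that brings Ran back to the nucleus, the values were 1.16 in replicate 1 and 0.492 in replicate 2 (0.827 ± 0.474). The gene of the activating protein, ran-2, had no region in its window.

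The 11 genes without a promoter peak included all 3 central channel genes and, of the other npp genes, both npp-26 (GLE1) and npp-27. The window of npp-27 held a pooled region of signal 54.1 and that of npp-11, the Nup62 homolog, 1 of 31.7, both below the lowest thresholded signal of 77.0. At npp-27 a thresholded summit of signal 118 lay 430 bp downstream of the 5′ end, outside the window. With a window of 1000 bp before and 500 bp after the 5′ end, npp-27 had a promoter peak. It also had one with the 5′ end of any of its coding transcripts. No pooled region had its summit in the windows of the other 9. These were npp-1 (Nup54) and npp-4 (Nup58) of the channel, npp-10 (Nup98 and Nup96) and npp-24 (Nup88) of the cytoplasmic side, npp-21 (Tpr) of the basket, npp-15, npp-23, npp-26 and ran-2. Counting any pooled region, 31 of the 40 genes had a summit in the window (77.5%), against 28.3% of all protein-coding genes. For 10 of the 11 genes the nearest thresholded summit was more than 3000 bp away, npp-27 being the exception. The share over all genes without a peak was not counted, so this is no trait of these genes. How reads could be placed at these promoters was not examined.

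The nearest gene upstream was considered after the peaks had been seen, and so was the distance of 500 bp. In C. elegans many genes that start just behind another are transcribed in operons from the promoter of the first gene, but operons were not examined, and their part in the result was not tested. A neighbour that reached the 5′ end or past it was counted at 0 bp, as cyp-44A1 was at npp-24. The same rule held for all protein-coding genes, so these classes also take in overlapping genes. Among the 40 genes, 6 had as their nearest upstream neighbour a same-strand gene that ended within 500 bp by this rule. Of these 6, 1 had a peak, npp-22. The 5 others were npp-1, npp-23, npp-24, npp-26 and ran-2, which starts 480 bp behind npp-15. Just past that distance, imb-2 (525 bp), ima-3 (526 bp) and ima-2 (609 bp) followed a same-strand gene and had a peak, and npp-4 (537 bp) did not. Of the 12 genes with an opposite-strand neighbour within 500 bp, 10 had a peak, and of the 22 with neither, 18 did. The shares over all protein-coding genes were 9.15%, 30.7% and 10.4% in the same order. The share at these genes was above that of all genes in each class, and in the same-strand class it was near it, at 16.7%, and rests on 6 genes.

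**Figure D3:**
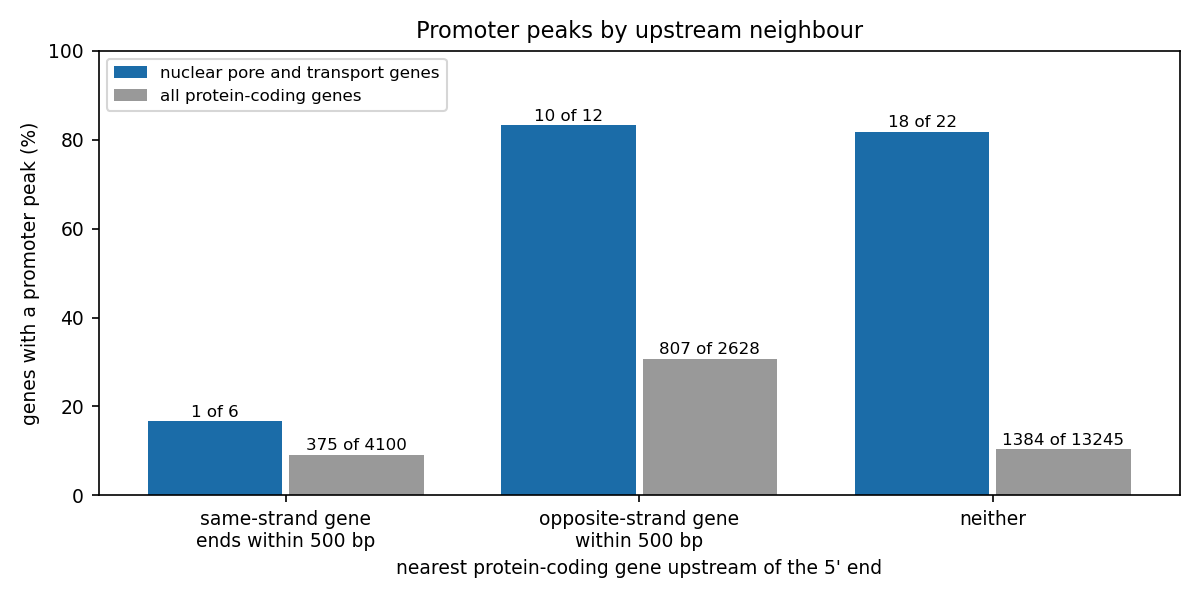
Bars give the percentage of genes with a promoter peak by the nearest protein-coding gene upstream, for the nuclear pore and transport genes (blue) and all protein-coding genes (grey). In the same-strand class 1 of 6 genes had a peak, against 10 of 12 and 18 of 22 in the other classes. A neighbour that reached the 5′ end or past it counts as within 500 bp.

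Summits lay farther upstream than at most genes with a peak. The median of the 29 was 258 bp upstream of the 5′ end, against 178 bp over all 2566 genes with a promoter peak. They ranged from 69 to 499 bp upstream, and 0 of 29 were downstream of the 5′ end, against 6.78% of all genes with a peak. Between 301 and 500 bp upstream lay 9 of the 29 (31.0%), against 22.4%. The narrower window of 300 bp before and 100 bp after the 5′ end held a summit at 20 of the 40 genes, against 9.77% of all protein-coding genes. The 15 shared summits (51.7%, against 40.8% of all genes with a peak) were each shared with a gene on the opposite strand, whose 5′ end was the nearer in 10 cases. The strand of the partner and the nearer 5′ end were not counted over all genes with a shared summit. The median relative signal was 1.11 at the 15 genes with a shared summit and 2.29 at the 14 without. Counts in the stronger 2678 peaks ran the other way, with 12 of the 15 shared (80%) and 9 of the 14 unshared (64.3%). Over all genes with a promoter peak that share was 65.9%, and the split by sharing was not made for them. The 14 include npp-6, whose summit lay 223 bp inside spd-5. By upstream neighbour, the median was 1.88 at the genes with an opposite-strand gene within 500 bp and 1.28 at those with neither. Over all genes of these classes with a promoter peak and a value in both replicates, it was 1.83 and 1.30.

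**Figure D4:**
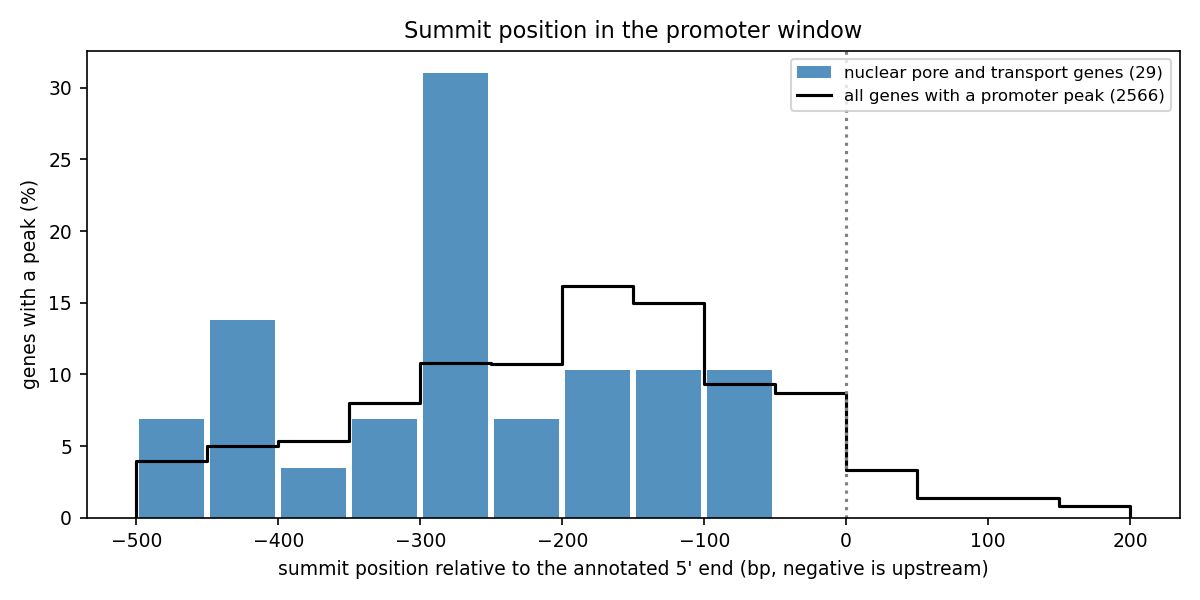
Bars give the percentage of the 29 nuclear pore and transport genes whose summit fell in each 50 bp bin relative to the annotated 5′ end, and the line gives the same for all 2566 genes with a promoter peak. The blue bars lie wholly upstream, with a median of 258 bp, against 178 bp for all genes.

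The summit windows were richer in G and C than promoters at large, as at other promoter peaks. The median GC content of the same kind of window was 46.5% at the 29 summits and 45.5% at the 2038 distinct summits that were the strongest of any gene. It was 33.7% in windows of the same length centred 258 bp upstream of every protein-coding gene. Motifs were searched on either strand, and 22 of the 29 windows held none of the 5, a share not counted over all promoter peak windows. GACGCA was in 4 windows (13.8%), at ran-5, imb-1, imb-3 and npp-7, against 17.9% of promoter peak windows and 2.78% of promoter windows. GAGACGC, which can overlap GACGCA, was in 1 window, imb-1, against 11% of promoter peak windows and 1.24% of promoter windows. The hexamer AGGTCA, a common nuclear receptor motif, was in 1 window, at ima-1, where it reads TGACCT in the gene's direction, against 2.26% of promoter peak windows and 2.65% of promoter windows. GCGCGAA, like sites of the cell cycle factor E2F, was in 1 window, at npp-3, against 3.58% and 0.666%. GAGAGAG was in 1 window, at ran-4, against 9.57% and 1.85%.

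Some windows shared longer runs of bases, picked out after seeing the sequences. Of the 406 pairs of windows, 26 shared a run of at least 10 bases. Pairs of other promoter peak windows were not searched, so whether this count is unusual was not tested. The runs shown in capitals were those, between windows on chromosomes II to V, that at least 20 promoter peak windows held. This filter set a floor on their share of promoter peak windows. A higher share there than in promoter windows was thus favoured in advance, and the values below only describe the runs. TGTCCGAGAGGA was at npp-8 and npp-18 and in 27 promoter peak windows (1.32%), against 0.0451% of promoter windows, and occurred at 187 places in the nuclear genome. CGGGTCTCGC was at npp-3, npp-9 and, on the other strand, xpo-3. It was in 30 promoter peak windows (1.47%), against 0.14% of promoter windows, and occurred at 328 places in the nuclear genome. TGCTGGCGCGT was at npp-20 and imb-2, and in 21 promoter peak windows (1.03%), against 0.0401% of promoter windows. Each of these runs is thus in few promoter peaks, and most of those are at other genes.

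The replicates gave nearly the same picture at the stronger peaks and differed at some weak ones. All 29 peaks overlapped a region of both replicates, as did the peaks of 2534 of the 2566 genes with a promoter peak. The thresholded list derives from both replicates, so such overlap was largely fixed in advance. In 26 of the 29 the summits of the replicates were within 20 bp of each other, a share not counted over all genes. The SD was 9.21% of the mean at the median gene, against 9.22% over all genes with a promoter peak. Replicate 2 was the higher at 14 genes and replicate 1 at 15. Within 2-fold lay 27 of the 29 (93.1%), against 97.2% of all genes with a peak, and the exceptions were ran-4 and ima-3, both higher in replicate 1. With the 5357 strongest regions of replicate 1 alone, 31 of the 40 genes had a summit in the window (77.5%), against 13.1% of all protein-coding genes. With replicate 2 alone it was 28 (70.0%), against 12.9%, and ima-3 and ran-4 had none.

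**Figure D5:**
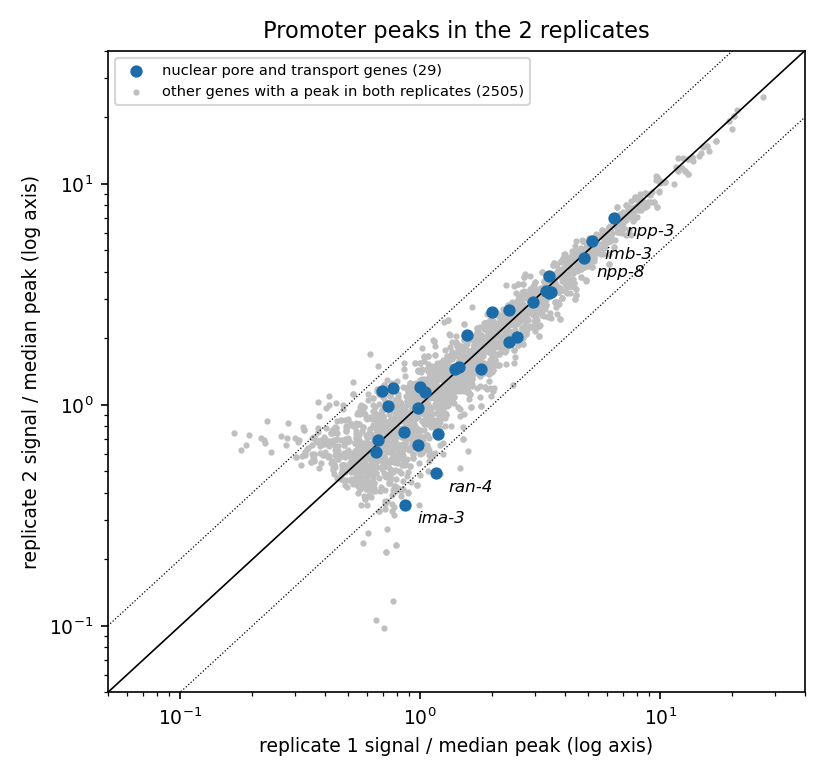
Each point is a gene with a promoter peak, as signal relative to the median peak in replicate 1 (x, log axis) and replicate 2 (y, log axis), with the nuclear pore and transport genes in blue and other genes in grey. The solid line is equality and dotted lines are 2-fold, and ran-4 and ima-3 lie below the lower one.

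Lists of genes that work beside the pore were set against the same background. A list of 17 genes for mRNA export and pore assembly had a peak at 6 (35.3%), and 16 genes of the nuclear envelope and lamina at 3 (18.8%), against the 12.8% of all protein-coding genes. In the first list the strongest was thoc-5 of the THO complex (5.84 ± 0.42, n = 2), then nxf-1, the main mRNA export receptor (2.58 ± 0.367), hel-1, a UAP56 helicase (2.29 ± 0.231), and nxt-1, the partner of NXF1 (1.70 ± 0.0135). The helicase gene ddx-19 (0.748 ± 0.0108) and aly-3 (0.503 ± 0.171) were under the median peak. The nucleoporin gene rae-1, also known as npp-17, carries a symbol outside the selection and was not counted. It had a promoter peak 100 bp upstream, at 2.09 in replicate 1 and 1.52 in replicate 2. In the first list, mel-28, for the pore assembly factor ELYS, had no peak. In the second list the genes with a peak were lem-2 (3.78 ± 0.187) and emr-1 (1.33 ± 0.132), for inner membrane proteins that bind chromatin through BAF, and baf-1 (2.02 ± 0.0893), for BAF itself. The lamin gene lmn-1 held only a region below the threshold. The differences between these lists and the 40 genes were not tested.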

How the data were processed

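ChIP-seq region lists of 2 biological replicates, the lists pooled over both, and the list thresholded by the irreproducible discovery rate (IDR) were used on ce11. Each list holds, for each region, the signal of the caller in column 7 as the authors deposited it, and the summit offset in column 10. The pooled and thresholded lists derive from both replicates, per the submitters' file index. It held 5357 regions, the other lists 30000 each. For the aligner, the caller and their versions, and for the IDR threshold, the entry is: not given in the sources used here. Signal depends on depth, which is unknown, so no interval is given. There were 0 unused per-sample columns.

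Summits were assigned with Python 3.11.15 and pandas 2.3.3 to 5′ ends of genes in Ensembl release 115. Of the regions of the 4 lists, 0 ran past the end of a chromosome of the RefSeq assembly. A gene's peak was its strongest summit. Replicate values were those of the overlapping replicate region (at least 1 bp) with the nearest summit, divided by the median over the 5312 peaks found in both replicates (66.8 in replicate 1, 92.2 in replicate 2). No test was made, and the SD covers 2 replicates. The assignment was tested on simulated data. Every gene chosen by symbol was named, as were genes of the further lists with a peak. Of the listed symbols, 1 (tnpo-3) was not found, and npp-17 is listed as rae-1 in that release, so the selection by symbol did not take it. Members and lists were chosen with earlier results of these data known. Roles are from RefSeq product names and general knowledge of vertebrate homologs.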

Additional observations from a re-analysis of the deposited data

How the results depend on the processing

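The count of 29 genes with a promoter peak fell to 18 with summits given only to the nearest 5′ end and to 14 without summits shared with another gene, an alternative chosen after seeing the data. It was 20 in the narrow window (9.77% of all genes), 30 in the wide window (16.4%), 30 with any transcript's 5′ end (13.9%), 21 with the stronger peaks (8.46%) and 31 with all pooled regions (28.3%). Leaving out a replicate gave 28 and 31. The median relative signal of 1.47 was 1.45 and 1.46 with a replicate left out, 1.5 with an overlap of at least 50% of the peak, 1.26 over the 18 genes of the nearest 5′ end rule, and 6.79 when divided by the median of all regions of each list. On that last scale it was 1.03 times the median of all genes with a promoter peak, and 1.02 times on the main scale. The median summit position of -258 bp was -260 and -269 bp in the replicates alone. No paired analysis was possible because the study has 1 group. Depth was unknown, so a window without a region says only that none was called there.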

Other observations

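Some promoters without a peak held regions in the list of 1 replicate. At npp-23 replicate 1 had a region of signal 92.5 at rank 1914 of its list, with its summit 155 bp upstream, and at npp-15 a region of signal 63.7 at rank 2883, 304 bp upstream. Neither overlapped a region of replicate 2 or of the pooled list. Of the 5357 strongest regions of replicate 1, 195 (3.64%) overlapped no pooled region, and of those of replicate 2, 84 (1.57%). At npp-27 replicate 2 had a region of signal 47.8 at rank 5220. The cause was not tested.

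The longest run of bases shared by the summit windows of a pair of these genes was CGTAAATCGACACGC, 15 bases, at ima-1 on V and, on the other strand, at npp-9 on III. It was in 3 promoter peak windows and occurred at 8 places in the nuclear genome.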
